A study of Mus musculus with 6 samples.

Results

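The 10 Toll-like receptor genes Tlr1 to Tlr9 and Tlr13 were examined in sorted LSK cells, the bone marrow cells without lineage markers and with Sca1 and cKit, which include blood stem cells and multipotent progenitors. They were chosen as a gene family, with earlier results of these data known. Each has exactly 1 probe set that names it alone, so 10 of the 22180 genes read on these arrays are described. RNA came from mice that received Tifab+/+ marrow (Tifab_WT) or Tifab-/- marrow (Tifab_KO), with 3 mice a group per the labels and 3 Affymetrix MoGene 2.0 ST arrays a group. In both groups the labels name syngeneic Boy/J recipients irradiated with 7.0 Gy and, 3 hours later, 4.75 Gy, and they give 3 months, in wording that does not tell an age from a time after transplantation. The sources used here do not say whether the sort used a marker of donor cells, so cells that survived in the host cannot be told apart from donor cells.

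Toll-like receptors detect molecules that mark microbes or damaged cells. Tlr1, Tlr2, Tlr4, Tlr5 and Tlr6 act at the cell surface, where they bind bacterial lipoproteins, lipopolysaccharide or flagellin, and Tlr3, Tlr7, Tlr8, Tlr9 and Tlr13 act in endosomes, where they bind nucleic acids. All of them signal through a cytoplasmic TIR domain, most by way of the adaptor MyD88, IRAK kinases and the ubiquitin ligase TRAF6, while Tlr3 uses the adaptor TRIF (Ticam1) and Tlr4 uses both. Blood stem and progenitor cells are known to carry some of these receptors and to answer their ligands directly. Tifab encodes a relative of TIFA, an adaptor of TRAF6, and the title of the series places its loss in this pathway. The comparison asks whether the receptor transcripts themselves differed between the genotypes.

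The promoter windows of Tlr2 and Tlr6 are shown because these receptors had the highest mean probe set signals in Tifab_WT. The windows come from RefSeq (GRCm38.p6) and run from 250 bases before to 50 bases after an annotated start, which Tlr6 has 2 of here. The Tlr2 window is chr3:83841559-83841858 and those of Tlr6 are chr5:64959117-64959416 (a) and chr5:64959999-64960298 (b), all on the minus strand and written 5′ to 3′ along the gene. Capitals mark matches on either strand to the interferon response core (GAAA, any 2 bases, GAAA) or the TATA box TATAAA.
Tlr2: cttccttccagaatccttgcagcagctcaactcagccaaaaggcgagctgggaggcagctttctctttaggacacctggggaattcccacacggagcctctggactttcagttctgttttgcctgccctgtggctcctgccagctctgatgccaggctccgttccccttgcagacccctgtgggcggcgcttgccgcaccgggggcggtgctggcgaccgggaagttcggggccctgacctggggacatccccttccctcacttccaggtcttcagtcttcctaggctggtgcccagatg
Tlr6 a: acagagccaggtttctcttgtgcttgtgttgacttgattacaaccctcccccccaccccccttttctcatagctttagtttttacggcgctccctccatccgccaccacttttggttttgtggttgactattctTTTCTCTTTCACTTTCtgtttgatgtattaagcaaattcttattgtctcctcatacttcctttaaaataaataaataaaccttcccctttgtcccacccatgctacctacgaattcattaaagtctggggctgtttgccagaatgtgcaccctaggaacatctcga
Tlr6 b: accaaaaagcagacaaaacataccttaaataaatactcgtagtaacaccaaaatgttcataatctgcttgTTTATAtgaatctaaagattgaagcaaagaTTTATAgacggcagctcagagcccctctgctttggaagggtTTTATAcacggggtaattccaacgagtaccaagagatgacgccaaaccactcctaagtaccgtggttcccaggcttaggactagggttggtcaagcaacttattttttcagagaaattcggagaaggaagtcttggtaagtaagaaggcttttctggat
The Tlr6 a window holds 2 overlapping matches to the interferon response core, Tlr6 b holds 3 matches to TATAAA, and the Tlr2 window holds neither. The matches in both Tlr6 windows are on the strand opposite to the one written. Those to TATAAA lie at -180, -150 and -109 from the annotated start. Of 32851 RefSeq mouse promoter windows of the same length, 3.44% hold the interferon response core and 13.6% hold TATAAA. The other motifs searched were GAGGAA, a core letter string of sites of the myeloid factor PU.1, and a form of the NF-kB site (GGG, any 2 bases, TTTCC). They occur in 28.3% and 1.63% of all windows and in none of the 3 windows shown. Only this form of the NF-kB site was searched, so other forms, such as those ending in TTCCC, may lie unmarked in the windows. Among the 8 receptors with a RefSeq window, GAGGAA occurred in 4 (Tlr1, Tlr8, Tlr9 and Tlr13), the NF-kB form in 1 (Tlr3), the interferon response core in 1 (Tlr6) and TATAAA in 2 (Tlr6 and Tlr8). These are matches of letters in a fixed window and not binding sites. Tlr4 and Tlr7 are named only.

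The arrays were on a common scale, with medians over all probe sets of 4.05 to 4.10 log2 units, and each array's mean correlation with the other 5 across genes was 0.976 to 0.982. The Tifab probe set read 4.99, 5.37 and 5.53 in Tifab_WT and 5.21, 5.12 and 5.26 in Tifab_KO (log2 difference -0.10 ± 0.18, SE, limma adjusted p = 0.885). The sources used here do not place its probes inside or outside the deletion, so it is no check of the labels and the directions given here rest on them. The progenitor markers Cd34 and Kit, the receptor that cKit staining detects, were bright, with Tifab_WT means of 10.4 and 9.59, while Ly6a, which encodes Sca1, was not analysed here. Markers of other cells also gave signals. All 12 neutrophil markers lay above the 95th percentile of olfactory receptor genes described next, led by S100a8 and S100a9 at 11.5 and 10.6. Their mean per array was 7.25 to 7.67 in Tifab_WT and 7.08 to 7.35 in Tifab_KO. Above that percentile were also 9 of 14 monocyte and macrophage markers, 7 of 10 dendritic cell, 7 of 9 B and plasma cell, 3 of 9 T and NK cell, 6 of 8 eosinophil, basophil and mast cell and 6 of 6 erythroid and platelet markers. Most genes passed it too: Tlr5, just below it at 4.10, had 45.0% of all genes at or below its Tifab_WT mean. These counts alone do not show which cells were present. By an unadjusted limma p under 0.05, which 5.51% of all genes met on the lower side and 4.74% on the higher side, the neutrophil list had 3 of 12 markers lower and 0 higher in Tifab_KO. The eosinophil, basophil and mast cell list had 3 of 8 lower and 0 higher, the monocyte and macrophage list 2 of 14 lower and 1 higher, and the LSK list 1 of 11 lower and 2 higher. The eosinophil gene Prg2 read 9.62, 8.87 and 9.23 in Tifab_WT but 6.44, 9.65 and 6.38 in Tifab_KO. Epx, of the same list, was also low on Tifab_KO replicates 1 and 3 only, while the groups of Ms4a2 did not overlap. The dendritic cell, B and plasma cell, T and NK cell and erythroid and platelet lists had 0 in either direction. The macrophage marker Adgre1, which encodes F4/80, was dim at 3.23 and 3.58 (group means). It was the dimmest of the 14 monocyte and macrophage markers by mean over the arrays. The brightest of that list were Cd68, with group means of 7.82 and 8.16, and Cx3cr1, with 6.28 in both groups.

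Receptor signals were low to moderate for this array. A value is the log2 signal of the probe set, and probe sets differ in how strongly they bind their target, so the order of receptors is an order of signals and not of transcript numbers. As a reference for genes that marrow cells should not use, 1105 olfactory receptor genes had a median of 2.43 and a 95th percentile of 4.11 in Tifab_WT. The mean signals of Tlr2, Tlr6, Tlr9, Tlr4 and Tlr3 lay above that percentile and above the median of all genes, 4.39. Those of Tlr5, Tlr7, Tlr13, Tlr1 and Tlr8 lay below both, in the range where olfactory receptor genes were also read. The margins were narrow for Tlr3, at 4.43, and for Tlr5, at 4.10. Without Tifab_WT replicate 2, 4 receptors in place of 5 lay above the median of all genes. None of the 10 reached the upper quartile of all genes, which began at 6.19.

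**Figure D1:**
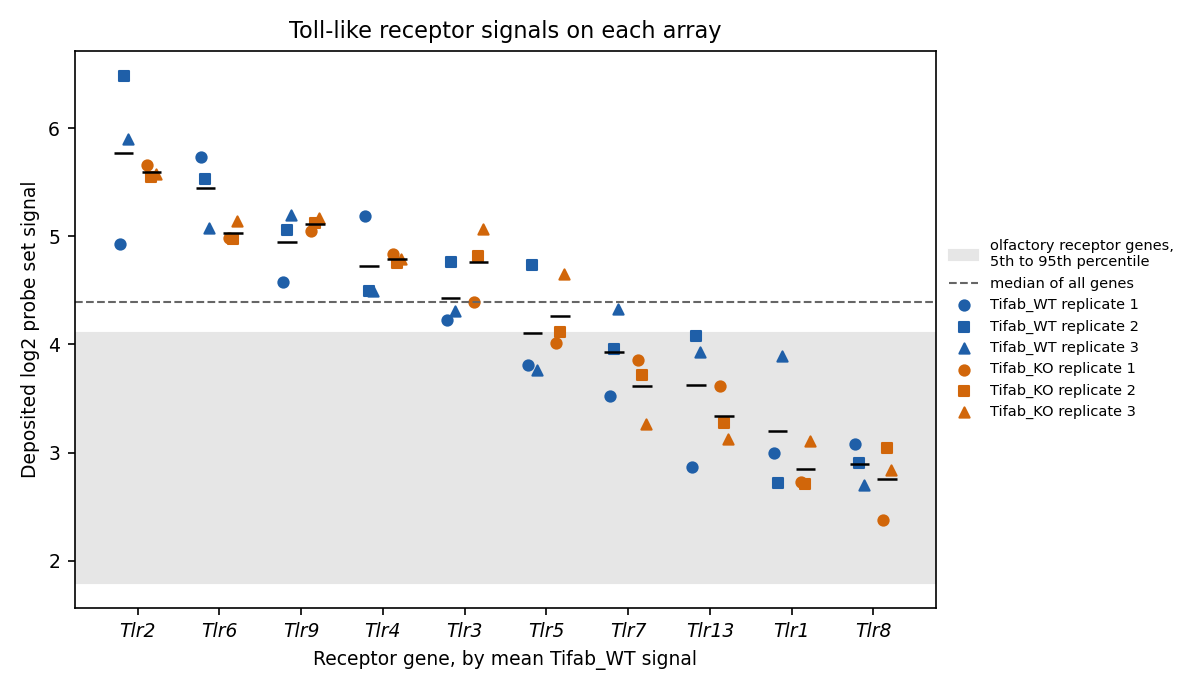
Log2 probe set signal (vertical axis) of each receptor (horizontal axis, by mean Tifab_WT signal) on the 3 Tifab_WT arrays (blue) and the 3 Tifab_KO arrays (orange), with group means as black bars, the 5th to 95th percentile of 1105 olfactory receptor genes in Tifab_WT as a grey band and the median of all genes, 4.39, as a dashed line. Tlr2 to Tlr3 have means above the band, Tlr5 to Tlr8 have Tifab_WT means inside it, and the groups overlap for every receptor.

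Among the receptors of bacterial lipoproteins, Tlr2, the shared partner in the pairs formed with Tlr1 or Tlr6, had the highest mean signal of the family. It read 4.92, 6.48 and 5.90 in Tifab_WT and 5.66, 5.55 and 5.58 in Tifab_KO. The 3 Tifab_KO arrays lay close together and inside the wide span of the Tifab_WT arrays, from the low replicate 1 to the high replicate 2. The means were 5.77 ± 0.79 and 5.60 ± 0.06 (SD, n = 3 each). The log2 difference of -0.17 ± 0.33 (SE, limma adjusted p = 0.891) was smaller than the spread between the Tifab_WT arrays.

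Tlr6, which pairs with Tlr2 to bind diacylated lipoproteins, had the lowest p of the family. Its signal was 5.73, 5.53 and 5.08 in Tifab_WT and 4.98, 4.97 and 5.15 in Tifab_KO. The 3 Tifab_KO arrays lay below the Tifab_WT mean, but Tifab_KO replicate 3 exceeded Tifab_WT replicate 3, so the groups overlapped. The log2 difference was -0.41 ± 0.19 (SE), or 0.752 of the Tifab_WT level, with a 95% interval of -0.85 to 0.025. In limma the unadjusted p was 0.0621 and the adjusted p 0.499. Tlr1, next to Tlr6 in the RefSeq gene order and its counterpart for triacylated lipoproteins, was dim in both groups. It read 3.00, 2.72 and 3.90 in Tifab_WT and 2.73, 2.71 and 3.11 in Tifab_KO. Tifab_WT replicate 3 stood apart, and the difference of -0.35 ± 0.28 (SE, limma adjusted p = 0.682) was -0.0077 without it. All 3 lipoprotein receptors had means on the lower side in Tifab_KO, with a median log2 difference of -0.35, and none passed the test.

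Tlr4, the lipopolysaccharide receptor, had almost equal means, 4.72 ± 0.40 and 4.79 ± 0.04 (SD, n = 3 each). Its arrays read 5.19, 4.49 and 4.49 in Tifab_WT and 4.84, 4.75 and 4.79 in Tifab_KO. The Tifab_KO arrays lay between Tifab_WT replicate 1 and the other Tifab_WT arrays. The log2 difference was 0.069 ± 0.21 (SE, limma adjusted p = 0.935), with a 95% interval of -0.40 to 0.54. Tlr5, the flagellin receptor, read 3.81, 4.73 and 3.76 in Tifab_WT and 4.01, 4.12 and 4.65 in Tifab_KO. Each group held 1 high array beside lower ones, and the log2 difference was 0.16 ± 0.28 (SE, limma adjusted p = 0.881).

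Of the endosomal receptors, Tlr9, which binds unmethylated CpG DNA, and Tlr3, which binds double-stranded RNA, were the brightest. Tlr9 read 4.58, 5.06 and 5.20 in Tifab_WT and 5.05, 5.12 and 5.17 in Tifab_KO. Its Tifab_KO arrays lay together within the upper part of the Tifab_WT span, and Tifab_WT replicate 1 was the low array (log2 difference 0.17 ± 0.19, SE, limma adjusted p = 0.788). Tlr3 read 4.23, 4.76 and 4.31 in Tifab_WT and 4.39, 4.82 and 5.07 in Tifab_KO. It had the largest difference on the higher side, 0.33 ± 0.22 (SE, limma adjusted p = 0.630), with overlapping groups and a 95% interval of -0.17 to 0.82.

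The receptors of single-stranded RNA were dimmer. Tlr7 read 3.52, 3.95 and 4.33 in Tifab_WT and 3.85, 3.72 and 3.26 in Tifab_KO, a log2 difference of -0.32 ± 0.24 (SE, limma adjusted p = 0.658). Its 3 Tifab_KO arrays lay below the Tifab_WT mean, but Tifab_WT replicate 1 was lower than 2 of them. Tlr13, a mouse receptor of bacterial ribosomal RNA, read 2.87, 4.07 and 3.93 in Tifab_WT and 3.62, 3.28 and 3.12 in Tifab_KO. Tifab_WT replicate 1 was the lowest of the 6 arrays and the other Tifab_WT arrays were the highest, which gave -0.29 ± 0.30 (SE, limma adjusted p = 0.772). Tlr8, next to Tlr7 in the RefSeq gene order, had the lowest signal of the family, 3.08, 2.91 and 2.70 in Tifab_WT and 2.38, 3.04 and 2.84 in Tifab_KO. Its log2 difference was -0.14 ± 0.19 (SE, limma adjusted p = 0.838), and 29.5% of olfactory receptor genes had a Tifab_WT mean at or above its own.

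The order by mean Tifab_WT signal was Tlr2, Tlr6, Tlr9, Tlr4, Tlr3, Tlr5, Tlr7, Tlr13, Tlr1 and Tlr8. The Tifab_WT arrays of neighbours in this order overlapped in each of the 9 neighbouring pairs, so no single step is larger than the spread between arrays. Compared within each array, Tlr3 read above Tlr5 on all 3 Tifab_WT arrays and on all 6 arrays. Every other neighbouring step was reversed on at least 1 Tifab_WT array. Over all 45 pairs, 25 did not overlap: Tlr2 and Tlr6 each exceeded Tlr3 and the 5 dimmer receptors on all 3 arrays. The order by mean Tifab_KO signal was the same apart from Tlr9, which stood above Tlr6. Tlr9 read above Tlr6 on all 3 Tifab_KO arrays and on 1 of the 3 Tifab_WT arrays. Tlr2 ranked first on 5 of the 6 arrays. The exception was Tifab_WT replicate 1, where Tlr6 and Tlr4 were brighter.

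Across the family no receptor differed between genotypes by the test. In limma 0 of 10 passed an adjusted p of 0.05 and 0 of 10 had an unadjusted p under 0.05, against 0.0% and 10.3% of all 22180 genes. The groups overlapped for each of the 10, where they did not for 16.1% of all genes. Means in Tifab_KO were on the higher side for 4 receptors and on the lower side for 6, with a median log2 difference of -0.16. That median was -0.054 without Tifab_WT replicate 2, -0.078 without Tifab_WT replicate 3 and -0.081 without Tifab_KO replicate 1. It was -0.16 without Tifab_WT replicate 1 or without Tifab_KO replicate 3, and -0.20 without Tifab_KO replicate 2. Among all genes 50.0% were on the higher side and the median was near 0. The olfactory receptor genes, whose median signal lay below that of Tlr8, had a median log2 difference of -0.18. The cell-surface receptors had a median of -0.17 over 5 genes, with 2 on the higher side, and the endosomal receptors -0.14 over 5 genes, also with 2 on the higher side. The 95% intervals of the 10 log2 differences held 0, and their outer bounds were -0.98 for Tlr1 and 0.82 for Tlr3, or 0.507 and 1.77 of the Tifab_WT level. Because LSK RNA was measured in bulk, fewer cells with a receptor and less receptor RNA per cell cannot be told apart.

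**Figure D2:**
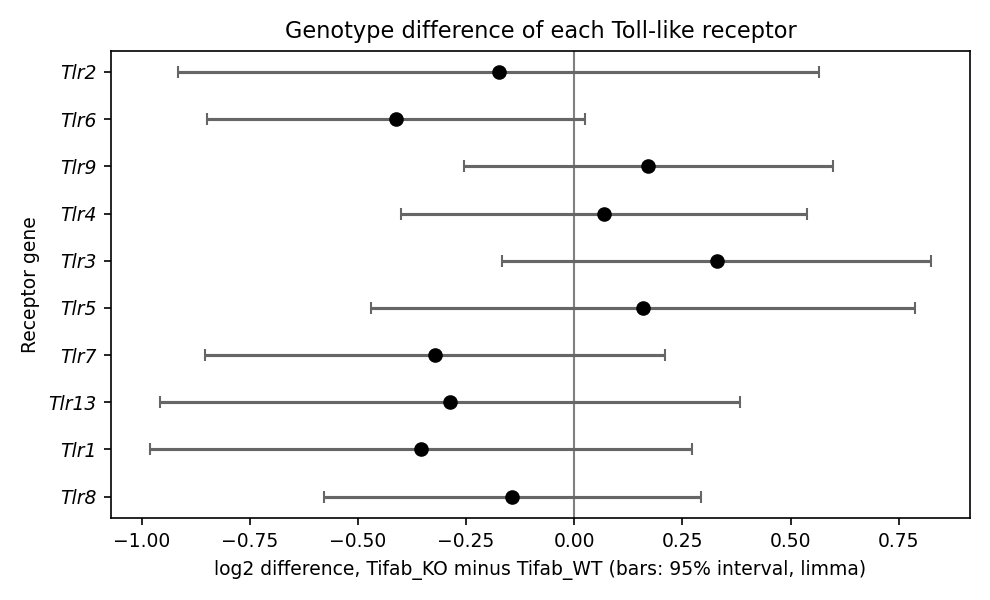
Log2 difference, Tifab_KO minus Tifab_WT (horizontal axis), of each receptor (vertical axis, by mean Tifab_WT signal), with points for the limma estimate from 3 arrays a group and bars for its 95% interval. The bars of all 10 receptors cross 0, with Tlr6 the nearest to clearing it at -0.85 to 0.025.

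The Tifab_WT arrays varied more than the Tifab_KO arrays for most receptors. The SD was larger in Tifab_WT for 8 of 10 receptors, the exceptions being Tlr3 and Tlr8, beside 60.7% of all genes. Its median over the receptors was 0.40 in Tifab_WT and 0.24 in Tifab_KO, where over all genes it was 0.21 and 0.17. For the 4 brightest receptors the Tifab_KO arrays spanned 0.086 (Tlr4) to 0.17 (Tlr6) log2 units and the Tifab_WT arrays 0.62 (Tlr9) to 1.56 (Tlr2). The Tifab_WT array that stood out differed between receptors. Replicate 1 was the lowest of its group for 5 receptors and the highest for 3, replicate 2 the highest for 4, and replicate 3 the lowest for 4. The neutrophil markers had their highest mean on Tifab_WT replicate 1, 7.67, where the monocyte and macrophage markers had their lowest, 4.78, and the B and plasma cell markers theirs, 5.26. The part of these cells in the receptor values was not tested.

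Leaving out single arrays moved several receptor differences. Without Tifab_WT replicate 1, Tlr13 had -0.66, Tlr2 -0.60 and Tlr7 -0.53, each at an unadjusted limma p under 0.05, with adjusted p of 0.422, 0.449 and 0.520. Without Tifab_WT replicate 3, Tlr6 had -0.60 (adjusted p = 0.271). Without Tifab_KO replicate 1, Tlr3 had 0.51 (adjusted p = 0.679). Other arrays moved the same receptors toward 0: Tlr13 had -0.062 without Tifab_WT replicate 2, Tlr7 -0.12 without Tifab_WT replicate 3, Tlr3 0.18 without Tifab_KO replicate 3 and Tlr6 -0.27 without Tifab_WT replicate 1. Tlr6, Tlr1, Tlr7 and Tlr13 stayed on the lower side and Tlr3 on the higher side whichever array was left out, while Tlr2, Tlr4, Tlr5, Tlr8 and Tlr9 changed sign at least once.

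**Figure D3:**
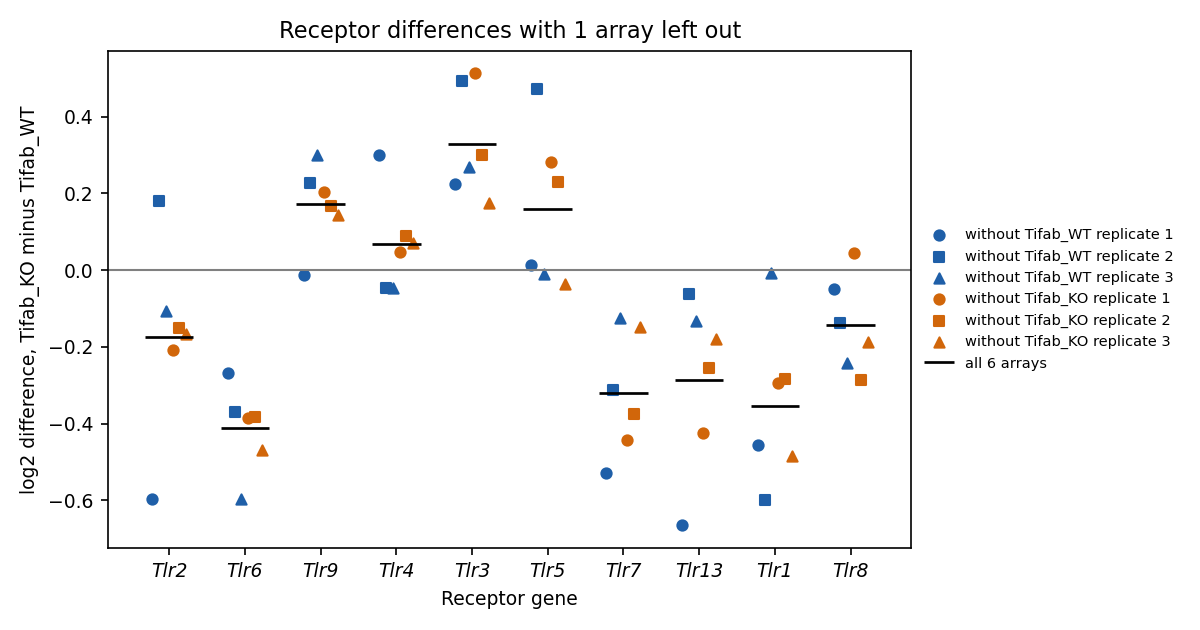
Log2 difference, Tifab_KO minus Tifab_WT (vertical axis), of each receptor (horizontal axis) from all 6 arrays (black bars) and after leaving out 1 Tifab_WT array (blue) or 1 Tifab_KO array (orange). Tlr6 runs from -0.60 to -0.27 and does not cross 0, while Tlr2 runs from -0.60 to 0.18.

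Genes closest to the 2 brightest receptors were sought among genes outside the family whose mean lay above the median of all genes. By mean absolute difference over the 6 arrays, after each gene's own mean was subtracted, those closest to Tlr2 were Mtfp1 at 0.10, Olfr914 at 0.108 and Gemin6 at 0.122 log2 units. Tlr2 itself deviated from its mean by 0.340 on average. Those closest to Tlr6, which deviated by 0.261, were Foxd2 at 0.0548, Timm17b at 0.0575 and Mtx3 at 0.0670. An olfactory receptor gene stands among them, and over 6 arrays such likeness is a description only.

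Around the receptors, 82 of 89 listed pathway genes were measured, and 0 passed the adjusted threshold in limma. In Tifab_KO, 5 of them were higher and 9 lower by an unadjusted p under 0.05, beside 4.74% and 5.51% of all genes, and their median log2 difference was -0.042. The counts moved when single arrays were left out. In place of 14, 8 genes had such a p without Tifab_KO replicate 1, 9 without Tifab_KO replicate 3 and 19 without Tifab_WT replicate 3. Leaving out any other array gave 13 to 15. Over all genes the count moved the same way in the named fits, from 2274 to 1630, 1739 and 2713. The groups did not overlap for 13 of the 82 genes, beside 16.1% of all genes. The lists were chosen with earlier results of these data known, so the counts are descriptions. Since none passed after adjustment, the genes named in the next paragraphs are given as values. They were picked by the smallest p in each list, which favours groups that do not overlap.

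The accessory and trafficking proteins, which load ligands onto the receptors or carry them to endosomes, had 0 higher and 1 lower of 14, with a median of 0.046. The scavenger receptor gene Cd36, a helper of the Tlr2 and Tlr6 pair, was the lower one at -0.35 ± 0.15 (SE), at a dim Tifab_WT mean of 3.54. Unc93b1, the chaperone that brings nucleic acid receptors to endosomes, read 7.63, 7.64 and 7.95 in Tifab_WT and 8.03, 7.90 and 8.02 in Tifab_KO, with overlapping groups and a log2 difference of 0.24 ± 0.14 (SE). Lbp, the lipopolysaccharide-binding protein gene, had 0.42 ± 0.24 (SE), or 0.21 without Tifab_WT replicate 1 and 0.67 without Tifab_WT replicate 3.

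The adaptors, kinases and TRAF proteins had 2 higher and 0 lower of 21 and a median of 0.15. Of the 21 means, 16 were on the higher side, beside 50.0% of all genes. Ikbke, a kinase that acts on interferon regulatory factors, read 5.02, 5.35 and 5.52 in Tifab_WT and 5.91, 6.22 and 5.89 in Tifab_KO. Its groups did not overlap, and the log2 difference was 0.71 ± 0.19 (SE, limma adjusted p = 0.334). Sarm1, the TIR-domain protein that restrains TRIF and cleaves NAD, had 0.53 ± 0.15 (SE) at dim signals of 3.11 and 3.64 (group means). Ticam2, the bridging adaptor between Tlr4 and TRIF, had 0.37 ± 0.19 (SE).

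The inhibitors had 1 higher and 2 lower of 12, with a median of -0.093. Socs1, which targets adaptor proteins and cytokine signalling, read 5.88, 6.004 and 5.93 in Tifab_WT and 5.19, 5.34 and 5.30 in Tifab_KO. The groups did not overlap, with a log2 difference of -0.66 ± 0.15 (SE, limma adjusted p = 0.297). Dusp1, a phosphatase of stress MAP kinases, had 0.26 ± 0.11 (SE), or 0.17 without Tifab_WT replicate 3, and Irak3, an inactive kinase that blocks IRAK signalling, -0.36 ± 0.15 (SE). Of 7 interleukin-1 family receptors, which share the TIR domain with the Toll-like receptors, 1, Il18r1 at -0.45 ± 0.16 (SE), was lower by an unadjusted p under 0.05 and 0 were higher. Their median was -0.14, and 6 of 7 means were on the lower side.

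The transcription factors had 1 higher and 0 lower of 8, with a median of -0.17. Irf7, the interferon regulatory factor downstream of Tlr7 and Tlr9, read 6.17, 5.89 and 6.14 in Tifab_WT and 6.65, 6.16 and 6.93 in Tifab_KO. Its groups overlapped by a narrow margin, with a log2 difference of 0.52 ± 0.21 (SE, limma adjusted p = 0.458), or 0.34 without Tifab_KO replicate 3. Rela, a subunit of NF-kB, had -0.21 ± 0.12 (SE), or -0.11 without Tifab_WT replicate 1, and Irf1 0.29 ± 0.17 (SE), or 0.19 without Tifab_WT replicate 3. The response genes, which these receptors are known to induce, had 1 higher and 5 lower of 20 at an unadjusted p under 0.05 and a median of -0.19. Those with the lowest p were Nfkbie, Il1b and Nfkbia, the latter encoding the inhibitor that holds NF-kB in the cytoplasm. Nfkbia read 9.92, 10.1 and 10.1 in Tifab_WT and 9.72, 9.67 and 9.70 in Tifab_KO, and Il1b, a cytokine gene, 5.30, 5.12 and 4.93 against 4.12, 4.46 and 4.21. Neither gene's groups overlapped, and Nfkbie, another inhibitor of NF-kB, had -0.70 ± 0.14 (SE). The lowest adjusted p in the list was 0.297 in limma.

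**Figure D4:**
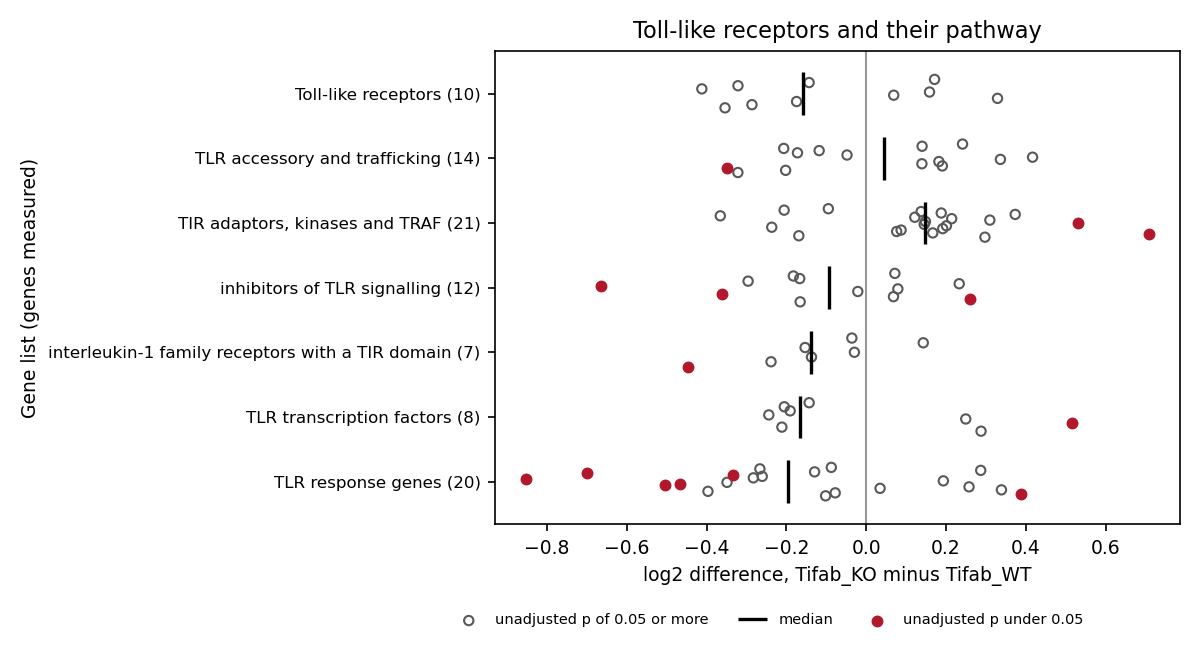
Log2 difference, Tifab_KO minus Tifab_WT (horizontal axis), of each gene in 7 lists (vertical axis, with the number measured), with filled red points for an unadjusted limma p under 0.05, open points for the others and black bars for list medians. The receptors hold no red point and lie between -0.41 and 0.33, and the response genes hold 1 red point on the higher side and 5 on the lower side.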

How the data were processed

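The deposited table holds log2 values of 41345 probe sets on 6 arrays. Per the submitters' processing notes it came from Affymetrix Expression Console; the sources used here give no version, background correction, summary or normalization. The log2 scale was read from the values. Genes were named from the platform annotation, in which 23521 probe sets had 1 symbol, 1814 several and 16010 none, and only the first were used. The probe set with the highest mean stood for a gene, which left 22180 genes. Each receptor has 1 probe set.

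Groups were compared with limma 3.58.1 in R 4.3.3 (lmFit, eBayes with an intensity trend), two-sided, with genotype as the only term and Benjamini-Hochberg adjustment over all genes at 0.05. The script was tested on simulated data. Differences are Tifab_KO minus Tifab_WT. Normalizing whole arrays hides changes in total RNA, dim probe sets compress differences, and the number of arrays limits the precision.

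Named are the 10 receptors, Tifab, up to 3 genes per pathway list with the smallest p, the 3 genes closest to each of the 2 brightest receptors, and the brightest markers; Kit, Adgre1 and Ly6a were named after the values were seen, and so was the comparison of spreads made. The members and lists were chosen with earlier results of these data known. Alternatives were other variance settings, array weights, quantile normalization, median centring, cyclic loess, a filter at the 40th percentile of signal, averaged probe sets per gene, a block for the replicate number, an adjusted p of 0.1 and each array left out. Sequences came from RefSeq windows of GRCm38.p6.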

Additional observations from a re-analysis of the deposited data

How the results depend on the processing

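No receptor passed the adjusted threshold of 0.05 in limma under any of the 15 alternative fits or at an adjusted p under 0.1, where 0 of all genes passed as well. Leaving out 1 array gave 0 to 1 genes past the adjusted threshold over all genes, none of them a receptor or pathway gene: Iglv1 without Tifab_WT replicate 3 (adjusted p = 0.0133) and Prg2 without Tifab_KO replicate 2 (adjusted p = 0.0177). With 1 array left out, Tlr9 ran from -0.013 to 0.30, Tlr2 from -0.60 to 0.18, Tlr4 from -0.048 to 0.30, Tlr5 from -0.036 to 0.47 and Tlr8 from -0.29 to 0.045. Tlr6 reached an unadjusted p under 0.05 with quantile normalization (-0.45, adjusted p = 0.557), median centring (-0.47, adjusted p = 0.407) and cyclic loess (-0.45, adjusted p = 0.545). Outside the single-array fits no receptor changed sign. The median over the receptors turned to 0.11 when genes under the 40th percentile of signal were left out, because that keeps only 6 receptors. Over all genes, 1218 of the 13308 kept then had an unadjusted limma p under 0.05, against 2274 of 22180 without the filter. Median centring moved the median of all genes to -0.055 and the share on the higher side from 50.0% to 40.7%. With the replicate number as a block 0 genes passed and 2119 had an unadjusted p under 0.05. Same-numbered arrays deviated together at r of 0.020, -0.031 and -0.088 across genes, and differently numbered arrays at r of -0.074 to 0.107. With so few arrays these values cannot tell whether same-numbered samples shared more than a number. Each receptor has 1 probe set, so averaging probe sets left the receptor values as they were, and no further receptor probe set could be given. The median log2 difference of genes varied with signal: it was -0.17 in the dimmest decile, which holds no receptor, -0.061, -0.0073, 0.036 and 0.063 in deciles 2 to 5, which hold Tlr8, Tlr1, Tlr7, Tlr13 and Tlr5, and 0.064 and 0.022 in deciles 6 and 7, which hold the others. After cyclic loess the first 7 lay between -0.015 and 0.014.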
